A study of Mus musculus with 12 samples.

Results

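Rgn, Gulo, Ugp2 and Ugdh are 4 of the 21705 genes measured in livers of saline and LNA29 mice, and together they cover much of the route by which mouse liver makes ascorbate, vitamin C. Rgn (Entrez 19733) was selected on its lower values in these LNA29 livers, and the other 3 were taken as its neighbours in the route: Gulo (Entrez 268756), Ugp2 (Entrez 216558) and Ugdh (Entrez 22235). The difference of Rgn between the groups is therefore a description and carries no test. The other 3 were also chosen with earlier results of these data known, so they are not a blind choice. The genes were found by their symbols, and all 4 were above the limit on low values used for testing.

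The livers came from C57BL/6J female mice that were 10 to 12 weeks old at dosing. Of these, 6 received saline into the tail vein and 6 received LNA29, which joins a locked nucleic acid oligonucleotide against miR-29a with another against miR-29b and miR-29c, each at 20 mg/kg. Livers of both groups were collected on day 7 after an 18 h fast, and polyadenylated RNA was sequenced. The saline mice received no oligonucleotide, so that loss of miR-29 and exposure to any locked nucleic acid cannot be told apart in these 12 livers, and mature miR-29 is not measured in polyadenylated RNA.

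Most mammals make ascorbate in the liver from glucose. Ugp2 joins glucose 1-phosphate to UTP to give UDP-glucose, which also feeds glycogen, and Ugdh oxidises UDP-glucose to UDP-glucuronate, which also feeds the glucuronidation of drugs and bilirubin. Free glucuronate is reduced to L-gulonate, mainly by Akr1a1. Rgn, also known as regucalcin or SMP30, is a calcium-binding protein of hepatocytes that acts as the lactonase closing L-gulonate to its lactone, and Gulo oxidises the lactone in the last enzymatic step to ascorbate. Gulo is a pseudogene in humans.

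The microRNAs that LNA29 binds are shown because LNA29 was designed against them and because they share a seed, the bases that pair with messenger RNAs. The mature mouse sequences from RefSeq (GRCm38.p6) are written 5′ to 3′ with the seed, bases 2 to 8, in capitals. The coordinates are those of the mature sequences. The sequence from Mir29a lies at chr6:31062673-31062694 on the minus strand and that from Mir29c at chr1:195037600-195037621 on the plus strand. miR-29b comes from both Mir29b-1 and Mir29b-2. Its sequence lies at chr6:31063025-31063047 on the minus strand in Mir29b-1, and at chr1:195037091-195037113 on the plus strand in Mir29b-2.
miR-29a-3p: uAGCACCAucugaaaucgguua
miR-29b-3p: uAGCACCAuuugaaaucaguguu
miR-29c-3p: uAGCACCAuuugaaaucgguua
The seed was the same in all 3. Its complement, TGGTGCT, was looked for on the sense strand of the longest 3′ UTR of each gene in GENCODE release M21 (GRCm38). It occurred in none of the 3′ UTRs of Rgn (604 bases), Gulo (780 bases), Ugp2 (884 bases) and Ugdh (735 bases). Among all 21025 genes with a 3′ UTR, whose median length was 961 bases, 2755 (13.1%) held it. The hexamers inside it, GGTGCT and TGGTGC, were also not found in the 4 genes, and were held by 28.3% and 26.9% of all genes. Absence of these letters from the annotated windows says nothing about sites of other kinds.

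Values are the deposited expression values, which set the upper quartile over expressed genes to 1000 in a liver (998 in saline 49). Reads were estimated from these values, with a single read taken to stand for 9.80 to 24.4 units of the deposited value. By this estimate a liver had 7.70e+06 to 1.91e+07 reads, with medians of 1.20e+07 in saline and 9.12e+06 in LNA29 livers. Saline 49 stood apart, with 35.7% of its reads on albumin, against a highest share of 46.9% in the 12 livers. Groups were compared with limma on the log2(value + 1) scale in 12486 genes whose mean was 10 or more. Of these, 20 genes (0.160%) had an adjusted p under 0.05, 988 (7.91%) had an unadjusted p under 0.05, and 89 (0.713%) had every LNA29 liver below every saline liver. The median log2 fold change of all tested genes was -0.09, and 61.4% of them were lower in LNA29 livers, which is the background for every count of lower genes. In whole liver, fewer cells of a type and less RNA per cell cannot be told apart.

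Rgn was the member with the clearest separation between the groups. In the 6 saline livers its values were 17188 in liver 43, 8190 in 45, 6649 in 47, 12410 in 49, 9525 in 51 and 8412 in 53. In the 6 LNA29 livers they were 5700 in liver 44, 4268 in 46, 2547 in 48, 3214 in 50, 4302 in 52 and 4329 in 54. The highest LNA29 liver lay below the lowest saline liver, so that the groups did not overlap, a pattern that was part of what Rgn was chosen for and that 0.713% of all tested genes shared. The mean was 10396 ± 3841 in saline and 4060 ± 1083 in LNA29 livers (SD, n = 6 each), 2.56-fold lower. On the log2 scale the change was -1.33, and its standard error (SE) was 0.22. Between 379 and 1241 reads stood behind the saline values and between 135 and 456 behind the LNA29 values, so that counting error was small beside the spread between mice.

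The saline livers covered the wider range. Saline 43 and saline 49 were the highest, and without saline 43 the log2 fold change of Rgn was -1.17, the smallest of the values with 1 liver left out. Without saline 47, the lowest saline liver, it was -1.44. By mean deposited value, not divided by transcript length, Rgn ranked 428 among the tested genes in saline livers and 960 in LNA29 livers. By log2 fold change it was rank 472 from the lowest of the 12486 tested genes, and rank 11 of the 3116 whose mean was 1000 or more. Most genes with a lower fold change thus had a mean deposited value under 1000.

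Gulo, which follows Rgn in the route, had a lower mean in LNA29 livers with a smaller difference. Saline values were 14891 in liver 43, 10175 in 45, 12930 in 47, 8870 in 49, 11485 in 51 and 11902 in 53. LNA29 values were 8425 in liver 44, 7683 in 46, 7528 in 48, 7554 in 50, 9830 in 52 and 10822 in 54. The groups overlapped: 4 of 6 LNA29 livers were below all saline livers, and LNA29 52 and 54 lay above saline 49. The mean was 11709 ± 2103 in saline and 8640 ± 1382 in LNA29 livers (SD, n = 6 each), and the log2 fold change was -0.43 (SE 0.15, 95% interval -0.75 to -0.12). The two-sided exact permutation test gave p = 0.0173, where the smallest p that 6 against 6 allows is 0.00216, but in limma the difference did not pass adjustment over all genes (adjusted p = 0.387). Saline 49, the liver with the low albumin share, was the lowest saline liver for Gulo, and without it the log2 fold change was -0.51 (exact permutation p = 0.00866). Without saline 43, the highest saline liver for Gulo, it was -0.36 (exact permutation p = 0.0303). With each of the 12 livers left out in turn, the exact permutation p ran from 0.00866 to 0.0346.

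Ugdh, the enzyme that commits UDP-glucose to glucuronate, had values of 1547 in saline 43, 1175 in 45, 947 in 47, 1460 in 49, 707 in 51 and 1363 in 53. In LNA29 livers it was at 1263 in liver 44, 878 in 46, 755 in 48, 714 in 50, 755 in 52 and 890 in 54. Saline 51 was the lowest of all 12 livers, so that no LNA29 liver was below all saline livers, although all 6 LNA29 livers were below the saline median of 1269. The mean was 1200 ± 323 in saline and 876 ± 203 in LNA29 livers (SD, n = 6 each). The log2 fold change was -0.43 (SE 0.21, 95% interval -0.87 to 0.0023), and it passed neither the exact permutation test (p = 0.0823) nor limma (adjusted p = 0.631). With 1 liver left out, the exact permutation p was under 0.05 in 2 of 12 runs. It was 0.0152 without saline 51 and 0.0390 without LNA29 44, and in the other runs it was as high as 0.141. Ugdh was read at the lowest depth of the 4 genes, between 36 and 146 reads in a liver.

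Ugp2, the pyrophosphorylase that makes UDP-glucose, showed the smallest difference. Its saline values were 3406 in liver 43, 2222 in 45, 2316 in 47, 2620 in 49, 2394 in 51 and 2647 in 53. Its LNA29 values were 2875 in liver 44, 2561 in 46, 2396 in 48, 1500 in 50, 1849 in 52 and 2247 in 54. The groups overlapped over most of their range, with only LNA29 50 and 52 below all saline livers. The mean was 2601 ± 429 in saline and 2238 ± 496 in LNA29 livers (SD, n = 6 each), and the log2 fold change was -0.23 (SE 0.17, 95% interval -0.58 to 0.12, exact permutation p = 0.206, limma adjusted p = 0.795). Without LNA29 50, the lowest liver, the log2 fold change was -0.13.

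**Figure D1:**
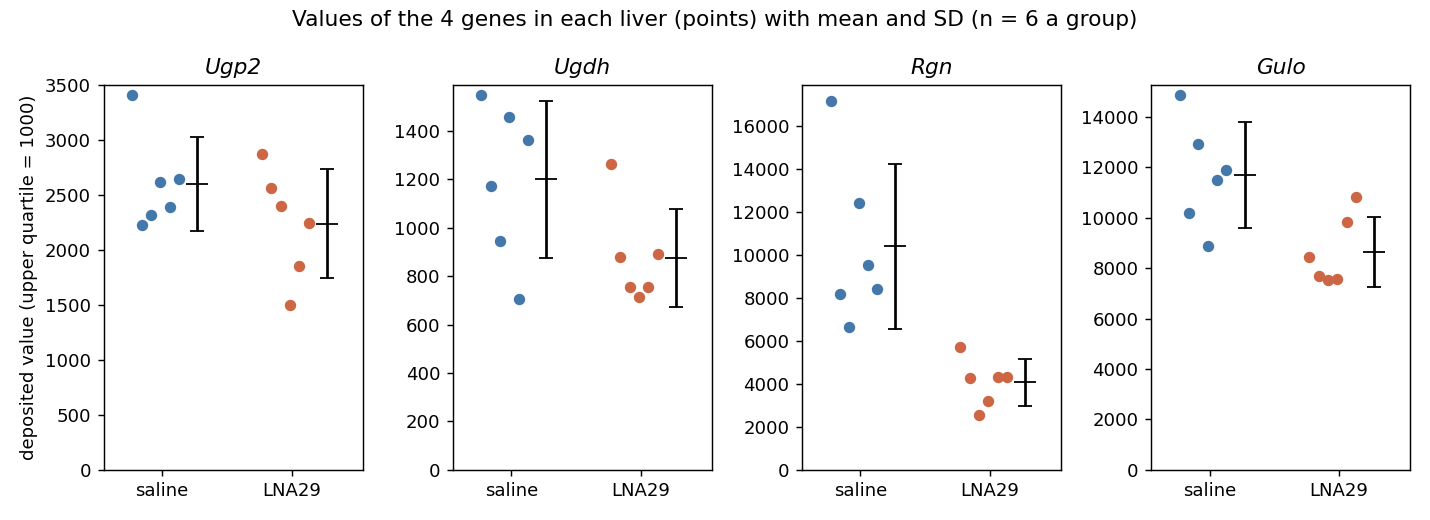
Deposited value of Ugp2, Ugdh, Rgn and Gulo in each liver (vertical axes start at 0, upper quartile of a liver = 1000), with 6 saline livers in blue, 6 LNA29 livers in red, and bars for the mean and SD. The Rgn values of the groups do not overlap (lowest saline 6649, highest LNA29 5700), while those of the other 3 genes do.

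Thus none of the 3 genes that were not chosen for their own difference had a limma adjusted p under 0.05, beside 0.160% of all tested genes, and 1 of the 3, Gulo, had an unadjusted limma p under 0.05 (0.00936), beside 7.91%. All 3 log2 fold changes were negative, as were 61.4% of those of all genes. Akr1a1, the reductase between Ugdh and Rgn, was at 10295 ± 1687 in saline and 8615 ± 965 in LNA29 livers (SD, n = 6 each), and its log2 fold change was -0.25 (SE 0.14, limma adjusted p = 0.707).

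**Figure D2:**
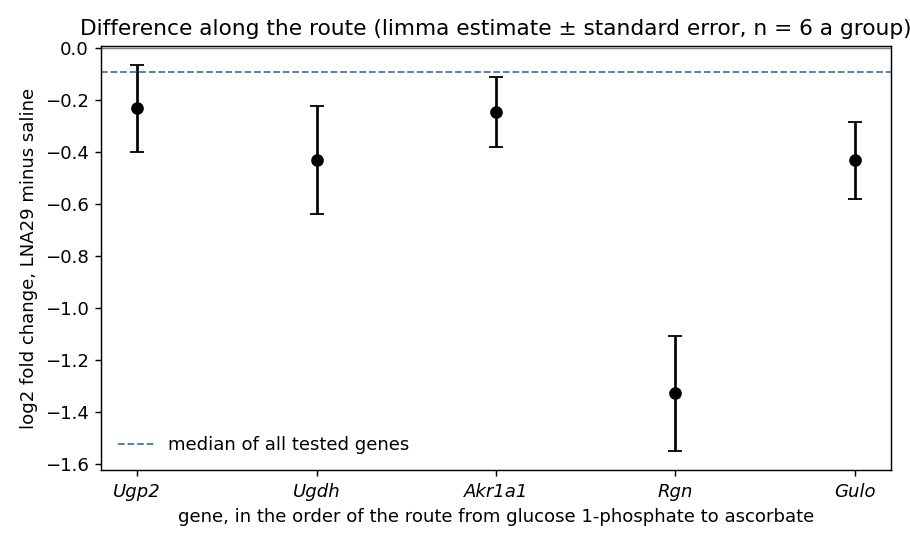
Log2 fold change, LNA29 minus saline, of the route genes in order from glucose 1-phosphate to ascorbate, as the limma estimate with its standard error (n = 6 a group), and the median of all tested genes (-0.09) as a dashed line. Rgn, chosen for its difference, is at -1.33, and the other 4 lie between -0.43 and -0.23.

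Levels of different genes were compared per kb of the longest annotated transcript. Per kb, the saline means were 7250 ± 1188 for Akr1a1, 6469 ± 2390 for Rgn, 5174 ± 929 for Gulo, 969 ± 160 for Ugp2 and 471 ± 127 for Ugdh (SD, n = 6). The 3 enzymes that convert glucuronate to ascorbate were thus above the enzymes that supply UDP-glucuronate, and the saline ranges of Akr1a1, Rgn and Gulo overlapped each other. In LNA29 livers the order of means was Akr1a1 at 6067 ± 680, Gulo at 3818 ± 611, Rgn at 2526 ± 674, Ugp2 at 834 ± 185 and Ugdh at 343 ± 79.4 (SD, n = 6).

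Per kb, Rgn and Gulo thus stood in the other order in the LNA29 means. The saline order rests on the transcript lengths used, 1607 bases for Rgn and 2263 for Gulo. Not divided by length, the mean of Gulo was above that of Rgn in both groups (11709 against 10396 in saline, 8640 against 4060 in LNA29 livers). Rgn per kb exceeded Gulo per kb in 4 of 6 saline livers, with ratios from 0.724 to 1.97 and a median of 1.15. It did so in none of the 6 LNA29 livers, with ratios from 0.476 to 0.953 and a median of 0.608. The ratio of Rgn to Akr1a1 per kb had a median of 0.776 in saline and 0.421 in LNA29 livers. Since these ratios hold Rgn, they share the choice of that gene and were not tested. Ugp2 per kb exceeded Ugdh per kb in all 12 livers, by a median of 1.97-fold in saline and 2.36-fold in LNA29 livers.

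**Figure D3:**
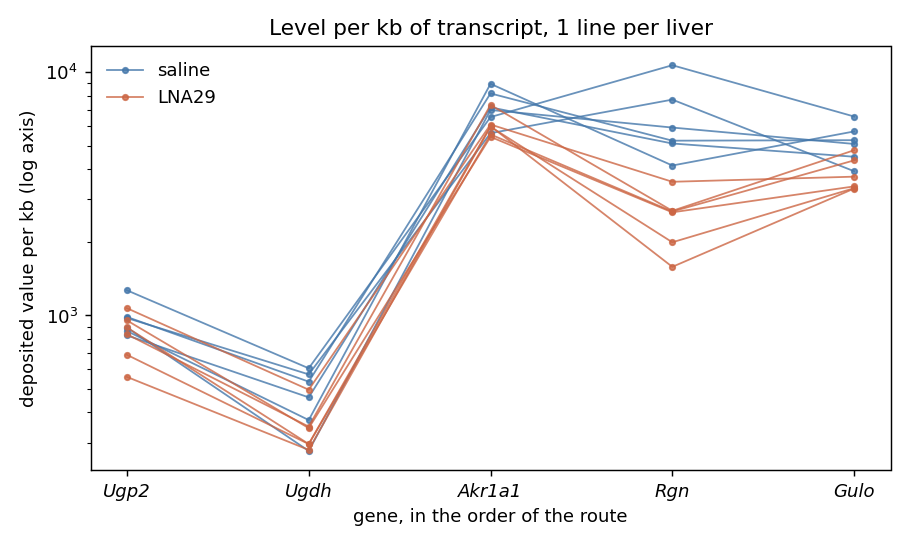
Deposited value per kb of transcript (log axis) of the route genes, with 1 line per liver, saline in blue and LNA29 in red. Akr1a1, Rgn and Gulo lie above Ugp2 and Ugdh in every liver, and the line from Rgn to Gulo climbs in all 6 LNA29 livers and in 2 of 6 saline livers.

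Within groups the members did not vary together in a way that passed adjustment. Over the 12 relations, 6 pairs of genes in each group of 6 livers, the largest Pearson correlation was that of Rgn with Ugp2 in saline livers (r = 0.870, exact permutation p = 0.0306, adjusted p = 0.300, Spearman rho = 0.771, exact permutation p = 0.103, adjusted p = 0.308), and without the 2 livers farthest from the median of Rgn it was 0.286. Rgn and Ugdh in LNA29 livers had r = 0.788 (exact permutation p = 0.0750, adjusted p = 0.300) and rho = 0.812 (exact permutation p = 0.0722, adjusted p = 0.308), and without the 2 farthest livers r was 0.938. Rgn and Gulo, adjacent in the route, had r = 0.178 in saline livers (exact permutation p = 0.756, adjusted p = 0.985, rho = 0.029, exact permutation p = 1.0). In LNA29 livers they had r = 0.471 (exact permutation p = 0.331, adjusted p = 0.567) and rho = 0.829 (exact permutation p = 0.0583, adjusted p = 0.308). Without the 2 farthest livers r of this pair was -0.53 in saline and -0.30 in LNA29 livers. Saline 49 was high for Rgn and low for Gulo.

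**Figure D4:**
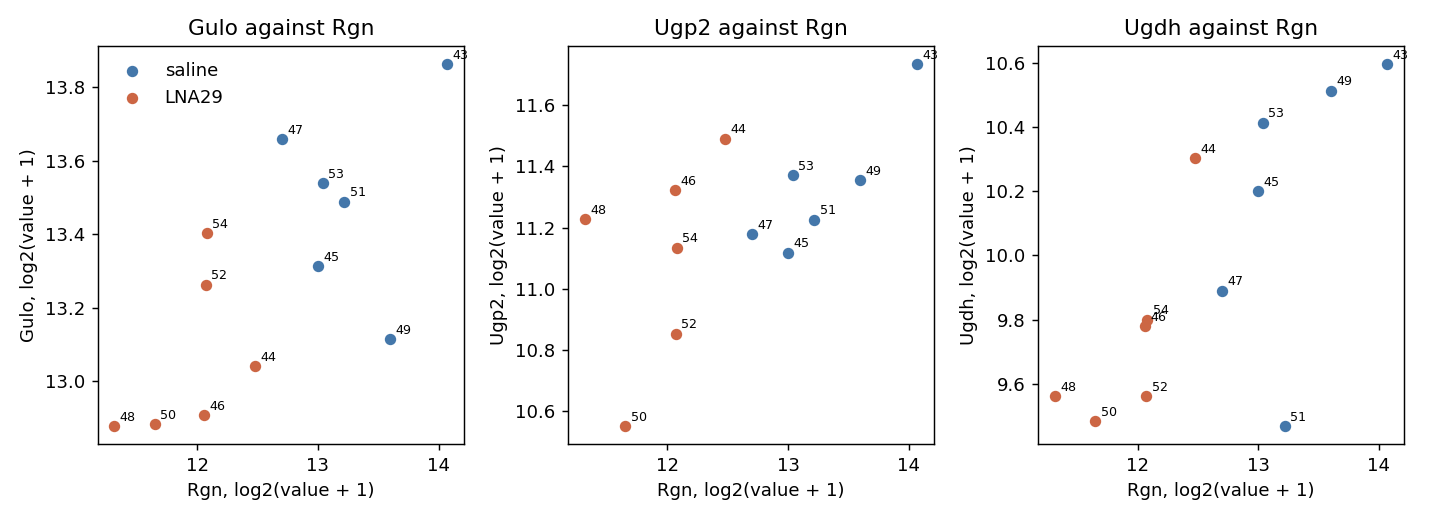
Gulo, Ugp2 and Ugdh against Rgn in the 12 livers, each on the log2(value + 1) scale, saline in blue and LNA29 in red, with liver numbers beside the points. Within saline livers the correlation of Gulo with Rgn is r = 0.178, and saline 43 is highest for all 4 genes.

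The genes most like Rgn in their pattern across livers were not those of the route. After subtracting each group's mean, the 5 highest Pearson correlations with Rgn over 12 livers, among the 8989 genes whose mean was 100 or more, included those of Prkd3, a protein kinase D (r = 0.952), 4931406C07Rik (0.947), Fzd7, a Wnt receptor (0.944), and Gclc, the catalytic subunit of glutamate-cysteine ligase, which limits glutathione synthesis (0.932). Without saline 43 and LNA29 48, the livers farthest from the median of Rgn, these values were between 0.876 for Gclc and 0.952 for Fzd7. Ugdh came at rank 1406 (0.637), Ugp2 at 1781 (0.589), Gulo at 3591 (0.299) and Akr1a1 at 7108 (-0.473).

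Without subtracting the group means, so that the difference between the groups counts too, the 5 most alike over the 12 livers were Pbld1 (r = 0.951), Zfp710, a zinc finger gene (0.937), Aox3, an aldehyde oxidase (0.935), 2810007J24Rik (0.929) and Bcar1, an adaptor of adhesion signalling (0.926). Their log2 fold changes ran from -0.92 for Aox3 to -0.40 for Pbld1, each smaller in size than that of Rgn. These genes were picked as the highest of 8989 in the same 12 libraries, so their correlations are a description. By this measure Ugdh came at rank 321 (r = 0.739), Gulo at 440 (0.708), Ugp2 at 829 (0.629) and Akr1a1 at 3522 (0.272).

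The other genes of the pathway were read from 7 lists. Of the 63 tested genes in these lists other than the members, none had a limma adjusted p under 0.05. An unadjusted p under 0.05 was reached by 2 higher and 6 lower genes (12.7%, beside 7.91% of all genes), and 60.3% of the 63 were lower, beside 61.4% of all genes. Around Ugp2 and Ugdh, among enzymes from glucose to UDP-glucose and UDP-glucuronate, 7 of 9 genes other than the members were lower in LNA29 livers and 2 were higher, with a median of -0.27 over all 11 in the list. Galt, which feeds galactose into the same pool, had a log2 fold change of -0.27, and of -0.15 without saline 47. The phosphoglucomutase listed under the symbol Pgm2, named Pgm1 in RefSeq, had close means (4146 ± 594 in saline, 3934 ± 454 in LNA29 livers, log2 fold change -0.07).

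Between glucuronate and ascorbate all 4 genes other than Rgn and Gulo were lower, with a median of -0.18 and no unadjusted p under 0.05. Gusb, which frees glucuronate from glucuronides, had a log2 fold change of -0.14, which lay between -0.21 (without LNA29 54) and -0.02 (without LNA29 52) with 1 liver left out. Enpp1, a nucleotide pyrophosphatase, had one of -0.23.

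Glucuronate that is not made into ascorbate is broken down to xylulose, and this branch had the lowest median of the 7 lists. Sord, sorbitol dehydrogenase, which interconverts xylitol and xylulose, had values from 13429 to 29266 in saline livers (median 18986) and from 8732 to 16811 in LNA29 livers (median 12126). Its mean was 19649 ± 5227 in saline and 12244 ± 2712 in LNA29 livers (SD, n = 6 each; log2 fold change -0.67, SE 0.18, limma adjusted p = 0.211), and 5 of 6 LNA29 livers were below all saline livers. Xylb, the kinase that phosphorylates xylulose, was at 7050 ± 1171 in saline and 4742 ± 688 in LNA29 livers (SD, n = 6 each; log2 fold change -0.57, SE 0.15, limma adjusted p = 0.185), with 4 of 6 LNA29 livers below all saline livers. Dcxr, the reductase before them, had a log2 fold change of -0.31 (limma adjusted p = 0.726). The other 2 tested genes of the branch, Cryl1 and Akr1b3, had higher means, so that 3 of 5 were lower, with a median of -0.31. Miox, which takes inositol to glucuronate in kidney, was under the limit on low values, with at most 1 read in a liver.

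No gene of glycogen and other uses of UDP-glucose passed the test. Of 7 tested, 6 were lower and 1 higher with a median of -0.09, and none had an unadjusted p under 0.05. With 1 liver left out this median lay between -0.28 (without saline 47) and -0.07 (without saline 53). Pygl, liver glycogen phosphorylase, had a log2 fold change of -0.31 and Gbe1, the branching enzyme, of -0.39, while Gys2, the liver glycogen synthase, was at 4151 ± 902 in saline and 4176 ± 1073 in LNA29 livers (SD, n = 6 each). Without LNA29 48 the log2 fold changes of Pygl and Gbe1 were -0.16 and -0.19.

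Transporters and recycling enzymes of ascorbate and its oxidised form were spread on both sides of 0, with 5 of 11 tested genes higher, 6 lower and a median of -0.04. Slc23a1, the sodium-dependent ascorbate transporter of liver, was at 1137 ± 175 in saline and 971 ± 185 in LNA29 livers (SD, n = 6 each; limma adjusted p = 0.797). Cyb5r3, a reductase that can recycle the ascorbate radical, was at 47477 ± 10225 and 33845 ± 6412 (log2 fold change -0.48, limma adjusted p = 0.459). Slc2a2, the main hepatic glucose carrier, which also takes up dehydroascorbate, was at 2740 ± 1193 and 1700 ± 697 (log2 fold change -0.71, limma adjusted p = 0.567), with -0.45 without LNA29 48. Cyb561, an ascorbate-dependent electron carrier of vesicles, had a log2 fold change of 0.59 (limma adjusted p = 0.653).

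Of the dioxygenases that use ascorbate to keep their iron reduced, 14 were tested, of which 8 were higher and 6 lower with a median of 0.0037. Lepre1, now named P3h1, a prolyl hydroxylase of collagen, was at 345 ± 37.5 in saline and 564 ± 136 in LNA29 livers (SD, n = 6 each; log2 fold change 0.68, SE 0.20, limma adjusted p = 0.257), and 5 of 6 LNA29 livers were above all saline livers. Tet3, which oxidises methylcytosine, was at 211 ± 158 and 387 ± 106 (log2 fold change 1.18, limma adjusted p = 0.433), with as few as 3 reads in a liver. Egln1, a prolyl hydroxylase of hypoxia-inducible factors, had a log2 fold change of -0.23. P4ha3, Plod2, Leprel1 and Tet1 were under the limit on low values.

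Rgn also binds calcium, and other calcium-handling genes were read beside it. Of 13 tested, 7 were higher and 6 lower with a median of 0.03. Atp2b2, a plasma membrane calcium pump, was at 168 ± 50.7 in saline and 91.8 ± 42.3 in LNA29 livers (SD, n = 6 each; log2 fold change -1.01, limma adjusted p = 0.514) on 1 to 17 reads. Atp2b1, another calcium pump, had a log2 fold change of 0.40 and Itpr2, a calcium release channel of hepatocytes, of -0.34. These 3 values came to -0.68 for Atp2b2 and -0.19 for Itpr2 without LNA29 46, and to 0.24 for Atp2b1 without saline 47.

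**Figure D5:**
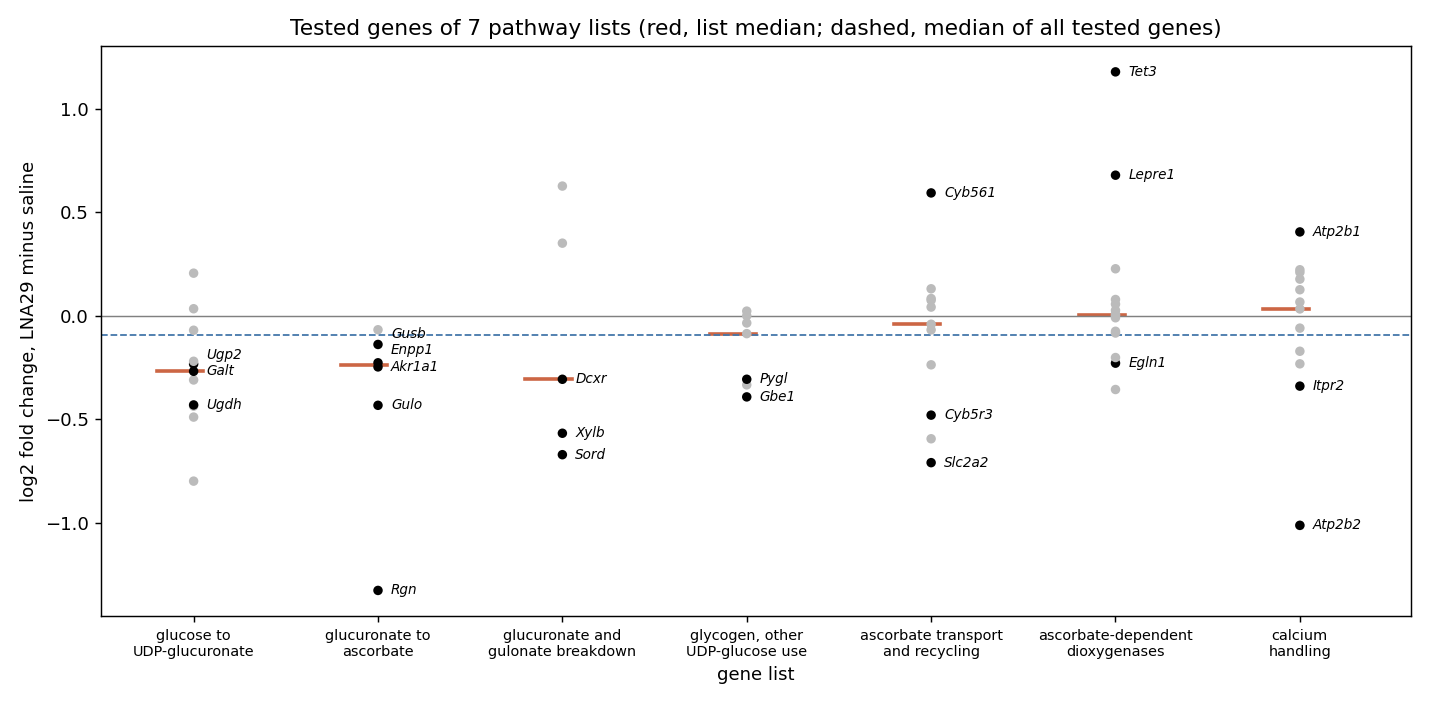
Log2 fold change, LNA29 minus saline, of the tested genes of 7 pathway lists, with labelled genes in black, further genes in grey, the median of each list as a red line and that of all tested genes (-0.09) as a dashed line. List medians run from -0.31 for glucuronate and gulonate breakdown to 0.03 for calcium handling, and the genes nearest to Rgn (-1.33), among them Atp2b2, are at -1.01.

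No gene next to a member on its chromosome passed the test. Of the 2 nearest protein-coding genes on each side of each member, 14 of 16 were tested, and their smallest unadjusted limma p was 0.0875 (Smim14, beside Ugdh, adjusted p = 0.716). Ndufb11, beside Rgn on chromosome X, had a log2 fold change of 0.10.

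The livers carried hepatocyte markers at high level, and all 7 such genes in the table were expressed in every liver. Their summed value ranged from 3.20e+07 to 1.09e+08 in saline livers, with saline 49 the lowest, and from 7.89e+07 to 9.38e+07 in LNA29 livers. This sum rests mostly on albumin (saline mean 7.38e+07, beside 4.98e+06 for Apoa1, the next highest), so it largely repeats the albumin share. Without saline 49, the log2 fold change of Rgn was -1.26, that of Ugdh -0.37 and that of Ugp2 -0.23. Since Rgn is a hepatocyte gene, markers of the zones of the liver lobule were set beside it. Of 9 markers of hepatocytes near the central vein, 7 were lower and 2 higher in LNA29 livers with a median of -0.27, and their summed value was between 590550 and 1153567 in saline and between 341472 and 842896 in LNA29 livers. Of 9 markers of hepatocytes near the portal vein, 6 were higher and 3 lower with a median of 0.10, and their sum was between 524953 and 709063 in saline and between 587962 and 901537 in LNA29 livers. Both sums rest mostly on 1 gene, Cyp2e1 near the central vein (saline mean 728480) and Pck1 near the portal vein (saline mean 389503). By single genes, Lect2, a marker of the central zone, had a log2 fold change of -0.65 (limma unadjusted p = 0.00744, adjusted p = 0.347). Of the portal markers, Hsd17b13 had a log2 fold change of 0.79 (limma adjusted p = 0.0682) and Cyp2f2 one of -0.48 (limma adjusted p = 0.488). No marker of either zone had a limma adjusted p under 0.05, and their part in the difference of Rgn was not tested.

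The summed markers of other liver cells overlapped between the groups. The summed value of 8 stellate cell markers was between 5105 and 5830 in saline and between 4707 and 6397 in LNA29 livers. That of 7 Kupffer cell markers was between 10000 and 16193 and between 9000 and 19219, and that of 7 endothelial markers between 6095 and 6540 and between 5001 and 6247. The 6 bile duct markers summed to between 604 and 906 and between 440 and 1170, and the 4 blood and lymphocyte markers to between 1987 and 5622 and between 2531 and 16769. The blood and lymphocyte sum rests mostly on Hbb-b1 (saline mean 3487). Single markers with an unadjusted limma p under 0.05 were Ngfr of stellate cells (log2 fold change -0.78, limma adjusted p = 0.487, 4 of 6 LNA29 livers below all saline livers), Marco of Kupffer cells (1.08, limma adjusted p = 0.391, 2 of 6 above all saline livers) and Stab1 of endothelial cells (-0.34, limma adjusted p = 0.567, 5 of 6 below). Of the endothelial markers 6 of 7 were lower, with a median of -0.26. Stellate cell markers were lower in 6 of 8 (median -0.07) and Kupffer cell markers in 5 of 7 (median -0.13). Marco thus went against most of its list, and its LNA29 values had a median of 953 and a highest of 3425. Bile duct markers were lower in 2 of 6 (median 0.17), and blood and lymphocyte markers in 3 of 4 (median -0.40). No marker in these lists was without reads in every liver, and their part in the values of the members was not tested.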

How the data were processed

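Messenger RNA from 6 saline and 6 LNA29 livers was sequenced as single reads of 100 bases. The authors mapped reads with MapSplice2 and estimated reads per gene with RSEM (mm9 in the submitters' processing notes; versions and annotation not given in the sources used here). The deposited values are a signal per gene: estimated reads divided by the upper quartile over expressed genes and multiplied by 1000, with genes without reads set to 1. Between 92.2% and 93.9% of the values in a liver were whole multiples (within 0.02) of the worth of 1 read, from which reads are given as estimates. Group means, a signed fold change, p-values and 3 unnamed note columns in the deposited table were not used.

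Genes with a mean of at least 10 were compared with limma 3.58.1 (R 4.3.3, trend) on log2(value + 1) with Benjamini-Hochberg adjustment, without pairing or covariates. Gulo, Ugp2 and Ugdh were also tested by exact permutation (two-sided, all 924 ways to divide the livers). Correlations used Python 3.11.15 with scipy 1.17.1. Mice were separate animals, and the numbers in the sample labels name the livers. Coordinates and transcript lengths are those of GRCm38, which is not the build of the authors. The members and all gene lists were chosen with earlier results of these data known. Named genes were the 4 members, in each pathway list the 3 tested non-members with the smallest limma p, and the 5 genes most like Rgn by each of 2 measures. Of the genes so taken, 4 are not reported here. Other genes named were chosen after their values were seen. On simulated data with 200 of 12486 genes changed by 2 on the log2 scale, limma called 154 genes, 150 of them changed ones. Alternatives were pseudocounts of 0.1 and 10, a mean of at least 50, no filter, a shift to a common median and leaving out each liver.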

Additional observations from a re-analysis of the deposited data

Results flagged for a closer look

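Among 50 groups of values of the members and of the genes that the naming rule took, 1 held a liver far from the others of its group by Dixon's criterion, where chance flags about 1 in 20 groups, 2.5 here. Pygl, liver glycogen phosphorylase, was at 3038 in LNA29 48 (161 reads), and at 5024 to 6012 in the other 5 LNA29 livers. The same liver had the lowest Rgn value of all 12.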

How the results depend on the processing

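The log2 fold changes of the 4 members kept their direction, and those tested their side of the limma threshold, under all 17 alternatives of each (68 of 68), as did those of the 21 other genes that the naming rule took from the lists (357 of 357). With 1 liver left out, Rgn ranged from -1.44 to -1.17, Gulo from -0.51 to -0.36, Ugp2 from -0.31 to -0.13 and Ugdh from -0.57 to -0.35. After a shift of each liver to a common median, Rgn was at -1.28 and Gulo at -0.39 (exact permutation p = 0.0498), and the median of all genes moved from -0.09 to -0.05. The count of genes with a limma adjusted p under 0.05, 20 in all (9 higher, 11 lower), was 10 after this shift (6 higher, 4 lower, all 10 among the 20). It ranged from 1 (without saline 43, LNA29 50 or LNA29 54) to 29 (without LNA29 48), so that the background share rests on single livers. The cause was not tested. The median of the list from glucose to UDP-glucuronate was -0.13 without LNA29 50. Medians of the transport, dioxygenase and calcium lists lay near 0 and changed sign under some alternatives. Count-based tests were not run, since whole reads could not be recovered in all 12 livers. No paired analysis was made, since the groups were separate mice and the labels name no pairs. Depth limits Ugdh most among the members, and genes with fewer than 10 reads in a liver among the lists.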
